A study of Mus musculus with 380 samples.

Results

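The cytosolic ribosome is built from ribosomal RNA and a fixed set of ribosomal proteins, whose genes carry the prefix Rpl for the large subunit and Rps for the small subunit. The messenger RNAs of these genes are among the most abundant in a T cell, and many begin with a run of pyrimidines, the 5′ terminal oligopyrimidine (TOP) tract, through which mTOR signalling controls their translation as a group. In T cells the demand for ribosomes changes between resting, memory-like and activated states. The genes were chosen by symbol alone: Rpl or Rps followed by a number, Rplp0 to Rplp2 and Rpsa, without pseudogene names and without the S6 kinase genes. This gave 84 of 23420 genes in the deposited table, 51 of the large subunit and 33 of the small subunit.

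The values describe T cells that had infiltrated B16F10 melanomas, a transplantable mouse tumour, in C57BL/6 mice. The mice were labelled WT (wild type) or KO for the gene Il27ra, whose product is part of the receptor for interleukin-27. Smart-seq2, a plate-based full-length RNA-seq protocol, was run on 4 plates, always named in the same order: CD8 from WT, CD8 from KO-labelled, CD4 from WT and CD4 from KO-labelled mice. A plate held 94 single cells beside 1 population well, which was made from many cells, so that the series has 380 libraries. The study asked which T cell genes depend on interleukin-27 in the tumour. All groups share the tumour, the strain and the protocol, the labels give no age, and the treatment text names CD8+ cells alone, whereas CD4 stands in the titles of 2 plates. A single mouse code is given per genotype. The genotype is given as the labels state it, because Il27ra RNA was still read on the KO-labelled plates, and the WT CD4 plate carries another plate code than the other 3.

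A gene was counted as detected above 1 FPKM (fragments per kilobase of transcript, adjusted for library size), and a cell was kept with at least 1000 detected genes. This left 72, 80, 79 and 73 cells of 94 on each plate, with a median of 3168, 2508, 2045 and 2218 detected genes. At least 2 of the T cell markers were detected in 97.2% to 97.5% of the kept cells of each plate. Markers of macrophages, 7 of which were in the table, summed to 2089, 894.0, 73.5 and 3381 FPKM in the 4 wells in the same plate order. Their median over cells was 0 on every plate, and their part in the well values was not tested. At least 2 of them were detected in 0, 1, 3 and 4 kept cells of the plates. At least 2 of 6 melanoma markers were detected in 5, 0, 0 and 2 kept cells. There was 1 plate and 1 well per group, so no difference between plates carries a test. Cells from 1 plate are no replicates, and plate, animal and label cannot be told apart. In the wells, fewer cells of a type and less RNA per cell cannot be told apart.

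Ribosomal protein genes took up a large part of every transcriptome. The share of a library's total FPKM that the 84 genes held is used below as the group's level. In the wells it was 17.2% for WT CD8, 18.01% for KO-labelled CD8, 18.1% for WT CD4 and 13.9% for KO-labelled CD4. Of the 100 genes with the highest FPKM in each well, 40 to 52 were ribosomal protein genes. The levels kept nearly one order: the Spearman rho of the 84 values between any pair of wells was 0.959 to 0.989, described over genes that are not independent.

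The 10 highest genes of each well held 26.3% to 26.5% of the group's FPKM there. By the mean over the wells Rplp0, the scaffold of the ribosomal stalk, was first with 9333 FPKM in the WT CD8 well, 9230.2 in the KO-labelled CD8 well, 10947 in the WT CD4 well and 7843 in the KO-labelled CD4 well. Among the 10 highest means were also Rps4x, which lies on the X chromosome, Rpl19, Rpl41, Rpl3, Rpl4, Rpsa, which is also known as a laminin receptor, Rpl13 and Rps3a1. All 10 had means between 5915 and 9338 FPKM. Apart from Rpsa, the genes named here for a second known role lay below them. Rpl5 averaged 3569 and Rpl11 3963 FPKM, and both encode proteins that bind Mdm2 when ribosome assembly fails. Rps6, whose protein is the substrate of S6 kinase, averaged 3832 FPKM. Rps27a, which encodes ubiquitin fused to a ribosomal protein, averaged 3140 FPKM. The stalk genes Rplp1 and Rplp2 averaged 5463 and 2586 FPKM.

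At the other end, 69 of the 84 genes were above 1000 FPKM in all 4 wells and a few were nearly absent. Rpl10l and Rpl39l, known as testis paralogues of X-linked Rpl10 and Rpl39, were at 0 in all 4 wells. Rpl3l, known from striated muscle, was above 0 only in the KO-labelled CD4 well, at 1.71 FPKM, and in no kept cell. These 3 were the only members detected in under 20% of the kept cells on all 4 plates, while 76 were detected in at least 50% and 17 in at least 90% of the cells on all 4 plates. Rpl22, whose protein is needed in T cell development, was low at 182 to 220 FPKM in the wells, under its paralogue Rpl22l1 at 514 to 729 FPKM. Rpl34 stood at 71.3 and 98.8 FPKM in the CD8 wells and 19.04 and 20.6 FPKM in the CD4 wells. The pseudogene row Rpl34-ps1 held 2345 to 2713 FPKM, so how reads were divided between the gene and its pseudogene is uncertain for every Rpl34 value given here. Rps15a-ps4 and Rps15a-ps6 were also read, at 260 to 620 FPKM. The symbol Rps4y2 had no position in GENCODE M21, and RefSeq lists it as another name of Rps4l, a transcribed pseudogene. The other 83 lay on 19 chromosomes, 14 of them on chromosome 7 and 4 on the X chromosome.

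Promoter sequences are shown to describe start-site features that the symbol rule did not use. Their relation to the levels in cells was not tested. RefSeq windows (GRCm38.p6, 250 bases before to 50 after the start) were found for 63 of the 84 genes. On the coding strand, 60.3% of these 63 genes held a run of at least 7 C or T within 20 bases of the start. The run was present in 24.6% of 69 mitochondrial ribosomal protein genes and 27.4% of 26962 other genes. These other genes are all non-members with a RefSeq window, the mitochondrial set included. A gene counted if any of its windows matched. The letters CCGGAAG, the core of an ETS family site, occurred on either strand of the window in 41.3% of the members, 37.7% of the mitochondrial set and 9.85% of the other genes. TATAAA occurred in 11.1%, 7.25% and 15.7%. Read on the other strand CCGGAAG is CTTCCGG, whose start can lie within a C/T run, and a match describes letters only. The stretches from 40 bases before to 20 bases after the start follow for Rps27 and Rps27l, a pair compared below. Also shown are 2 genes among those with the largest differences. Capitals mark each run of at least 7 C or T.
Rps27, chr3:90213629-90213688, minus strand: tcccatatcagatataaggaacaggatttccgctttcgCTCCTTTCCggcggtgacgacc
Rps12, chr10:23787190-23787249, minus strand: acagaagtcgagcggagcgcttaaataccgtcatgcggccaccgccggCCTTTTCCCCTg
Rps27l, chr9:66946046-66946105, plus strand: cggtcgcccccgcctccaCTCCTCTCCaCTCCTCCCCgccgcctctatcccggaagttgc
Rpl22l1, chr3:28805468-28805527, plus strand: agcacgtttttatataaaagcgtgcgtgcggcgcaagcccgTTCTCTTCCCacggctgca
In Rps27, Rps12 and Rpl22l1 the run lay across or just after the start, at base 41 of each line, whereas both runs of Rps27l lay before it. RefSeq has a second Rps27l entry, in which the same 60-base stretch held no such run.

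The share varied several-fold among the cells of each plate. In WT CD8 cells it ran from 0.562% over a median of 13.2% to 30.4%, and in KO-labelled CD8 cells from 3.74% over 15.6% to 35.5%. WT CD4 cells ran from 2.19% over 12.1% to 25.5%, and KO-labelled CD4 cells from 2.92% over 10.9% to 22.3%. The plates overlapped over most of their range, and each well lay above the median of its own cells. The lowest WT CD8 values belonged to 8 cells below a share of 5%. They had a median of 1117 detected genes and 12 detected ribosomal protein genes, against 3437 and 78.5 in the other 64 cells. Their median total was 65466 FPKM, against 1.01e+06 FPKM in those 64 cells. Such cells stand apart as libraries, so results are also given for cells with at least 2000 genes where these cells matter.

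**Figure D1:**
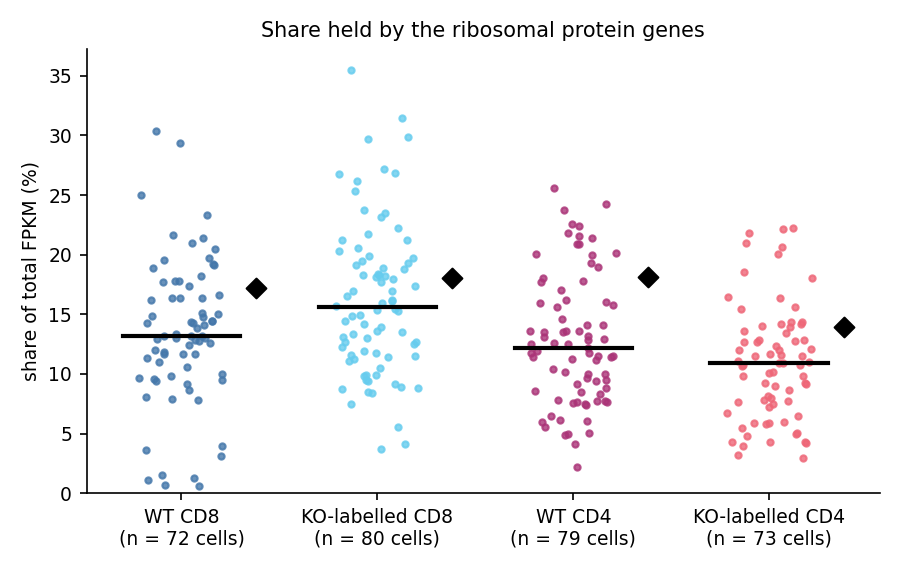
Share of total FPKM held by the 84 ribosomal protein genes (vertical axis, percent) in each kept cell (points) of the 4 plates, with the median of the cells as a black line and the population well as a black diamond. The medians are 13.2%, 15.6%, 12.1% and 10.9% from left to right, and the 4 wells lie at 17.2%, 18.01%, 18.1% and 13.9%, each above its median.

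The genes rose and fell together from cell to cell. The median Spearman rho over pairs of ribosomal protein genes was 0.475, 0.396, 0.319 and 0.348 on the 4 plates, against 0.147, 0.028, 0.030 and 0.024 over pairs of 3262 other genes. These values describe cells that share a plate, and differences in depth and in genes detected enter all of them. Level was not matched between the sets. The other genes needed detection in only 20% of the kept cells of each plate. Among the members 76 were detected in at least 50% of the kept cells on all 4 plates. Rpl5 followed the share most closely, with rho from 0.75 to 0.85, and Rps16, Rps18 and Rps4x followed. Of the 81 members with a rho on all 4 plates, 79 were above 0 on every plate, against 16.03% of the 3262 other genes. The exceptions were Rpl7l1, a paralogue known for a role in ribosome assembly, with rho from -0.03 to 0.06, and Rps27l, with rho from -0.01 to 0.29.

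Outside the symbol rule the genes most like the share, ranked by the lowest rho of the 4 plates, were mostly of the same system. Among the 10 highest was the elongation factor gene Eef1a1 with 0.58 to 0.71. They also held Naca, which encodes a factor that binds nascent chains, Npm1, a nucleolar chaperone gene, Eef1b2, the pseudogene rows Rps15a-ps6, Rps15a-ps4 and Rpl34-ps1, and the unnamed rows Gm12191 and Gm15772. The 10 lowest included Ccr2, a chemokine receptor gene, with -0.46 to -0.25, and the inhibitory receptor genes Tigit with -0.33 to -0.14 and Lag3 with -0.43 to -0.13. Also among these were Ehbp1l1, Slc16a10, D17H6S53E, Slc25a51, Sytl2, Prr11 and H2-T23. The share had a rho of 0.427 with the number of detected genes in WT CD8 cells, and of 0.173, -0.146 and 0.075 on the other plates in the same order.

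Cells in which Tcf7 was detected gave more of their FPKM to ribosomal protein genes on all 4 plates. Tcf7 encodes TCF-1, a transcription factor of naive, memory and stem-like T cells. On the WT CD8 plate the 11 Tcf7-detected cells had shares from 13.2% over a median of 21.4% to 30.4%, and the 61 other cells from 0.562% over 12.8% to 20.5%. On the KO-labelled CD8 plate 48 cells ran from 8.39% over 18.3% to 35.5% and 32 cells without Tcf7 from 3.74% over 11.8% to 27.2%. On the WT CD4 plate 33 cells ran from 11.4% over 16.02% to 25.5% and 46 cells from 2.19% over 9.29% to 21.8%. On the KO-labelled CD4 plate 17 cells ran from 8.67% over 14.2% to 22.3% and 56 cells from 2.92% over 9.52% to 21.8%. The ranges overlapped on every plate, but on the WT CD8 and WT CD4 plates every Tcf7-detected cell lay above the median of the cells without Tcf7, and on the KO-labelled plates 42 of 48 and 16 of 17 did.

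The difference of medians was 8.52, 6.44, 6.73 and 4.67 percentage points, with a mean of 6.59 ± 1.58 (SD, n = 4 plates). An exact two-sided sign-flip permutation test over the 4 plates gave p = 0.13, the smallest p that 4 plates allow, so the design cannot reach the 0.05 level. The share of Rn45s, a ribosomal RNA row, was also higher in Tcf7-detected cells on all 4 plates, by 1.59, 0.37, 0.42 and 0.151 percentage points (p = 0.13, the same exact test), and its rho with the members' share was 0.117 to 0.369. With Rn45s and Gm20594 left out of the denominator the Tcf7 differences were 9.01, 6.58, 6.97 and 5.02 percentage points. Genes detected did not move in 1 direction with it: the medians with and without Tcf7 were 2434 and 3438, 2495 and 2565, 1886 and 2095, and 2238 and 2189 genes. In cells matched in pairs on genes detected the mean difference was 6.75 percentage points. Cells with at least 5 cell cycle genes above 10 FPKM made up 27.3% of Tcf7-detected and 62.3% of other WT CD8 cells, 22.9% and 28.1% on the KO-labelled CD8 plate and 12.1% and 15.2% on the WT CD4 plate. On the KO-labelled CD4 plate the order was opposite, with 29.4% and 19.6%. Without such cells the mean difference was 6.85, although on the KO-labelled CD4 plate it fell to 2.78 percentage points with 12 against 45 cells.

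When the cells of each plate were cut into 3 near-equal groups by share, Tcf7 detection climbed from the lowest group to the highest. In WT CD8 cells it was found in 0 of 24, which allows a share of up to 12.5%, then 2 of 24 and 9 of 24. KO-labelled CD8 cells gave 8 of 27, 18 of 27 and 22 of 26. WT CD4 cells gave 0 of 27, with an upper limit of 12.8% by the same method, then 11 of 26 and 22 of 26. KO-labelled CD4 cells gave 1 of 25, 5 of 24 and 11 of 24. To place Tcf7 among other genes, the same difference of medians was taken for each of 4613 genes that were detected in at least 10 and undetected in at least 10 kept cells of every plate. Tcf7 ranked 1 by its mean and 1 by its lowest plate. Naca followed with a mean of 6.56 percentage points. Next were Gltscr2 with 5.42, Dgka with 5.24, the survival gene Bcl2 with 5.22 and Gtf2i with 5.16. The 10 highest also held Ms4a6b with 4.94, the chromatin organiser gene Satb1 with 4.91, Ctsw with 4.87 and Limd2 with 4.85. Several of these were near 0 on a plate. On the WT CD4 plate Gltscr2 was at 0.014, Ctsw at -0.062 and Limd2 at 0.062, and on the KO-labelled CD4 plate Satb1 was at 0.137. The lowest were Gzmb, the granzyme B gene, at -3.62 and the exhaustion receptor gene Havcr2 at -3.18. On the WT CD8 plate both were at 0.002, so their means come from the other 3 plates, where Gzmb had -5.73, -5.10 and -3.64. Of all 4613 genes, 12.01% were higher on all 4 plates, and Tcf7 was given by the question, not found by this scan.

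**Figure D2:**
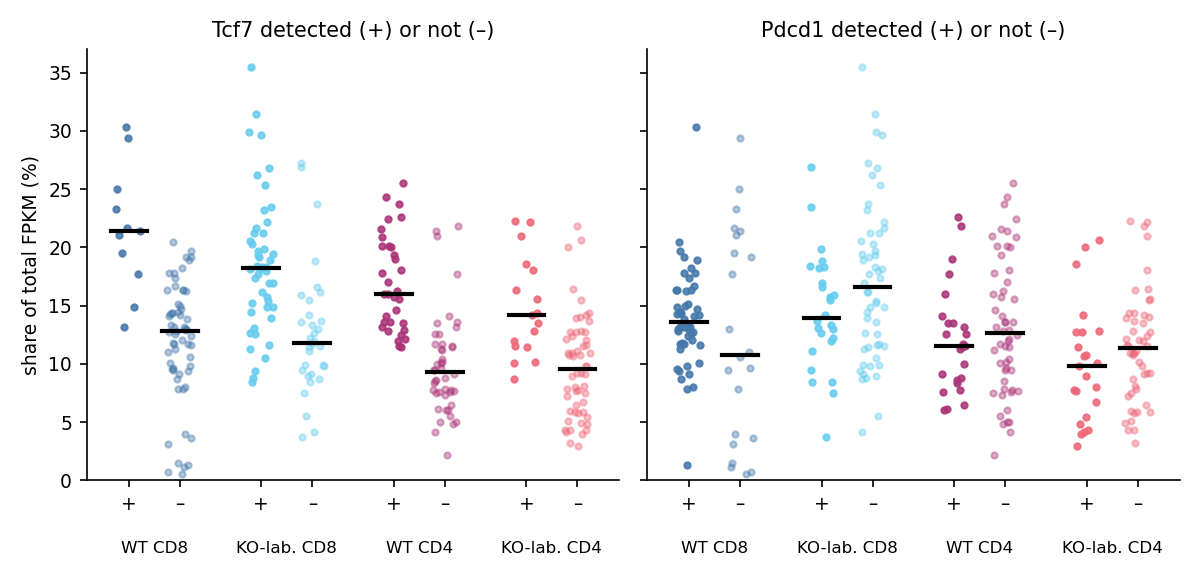
Share of total FPKM held by the ribosomal protein genes (vertical axis, percent) per kept cell, split by detection of Tcf7 (left) and Pdcd1 (right) above 1 FPKM, with group medians as black lines. The Tcf7-detected median is the higher on all 4 plates, by 4.67 to 8.52 percentage points, while the Pdcd1-detected median is higher on the WT CD8 plate only.

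The relation to Pdcd1, which encodes the inhibitory receptor PD-1, differed in direction between plates and turned with the choice of cells. Medians with and without Pdcd1 were 13.6% and 10.8% for WT CD8 (n = 50 and 22) and 13.9% and 16.6% for KO-labelled CD8 (n = 26 and 54). In CD4 they were 11.5% and 12.6% for WT (n = 25 and 54) and 9.82% and 11.3% for the KO label (n = 23 and 50). The differences were 2.82, -2.63, -1.11 and -1.49 percentage points, with a mean of -0.603 ± 2.37 (SD, n = 4 plates) and p = 0.75 in the exact sign-flip permutation test. Where 2000 or more genes were detected all 4 plates were below 0, at -5.37, -3.71, -0.202 and -2.15 percentage points with a mean of -2.86. All 4 were also below 0 in cells matched on detected genes, at -5.66, -0.676, -1.52 and -1.70, and without cycling cells, at -0.689, -3.53, -1.35 and -0.37. Over all 94 cells of each plate, the WT CD8 and WT CD4 plates were above 0, at 9.39 and 0.383. Detected genes moved with Pdcd1, at a median of 4039 against 2155 in WT CD8 cells. In the 14 WT CD8 cells with neither gene the median share was 5.91% and the median number of detected genes 1141.

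With both genes together, the highest median on each plate lay in Tcf7-detected cells without Pdcd1: 21.5% (n = 8), 18.3% (n = 39), 16.2% (n = 27) and 14.3% (n = 14). Cells with both genes had 14.9% (n = 3), 18.2% (n = 9), 15.02% (n = 6) and 11.5% (n = 3). Cells with Pdcd1 alone had 13.4% (n = 47), 12.98% (n = 17), 9.96% (n = 19) and 8.47% (n = 20). Cells with neither gene had 5.91% (n = 14), 9.92% (n = 15), 8.48% (n = 27) and 10.29% (n = 36). The median was thus higher with Tcf7 than without it among Pdcd1-detected cells of every plate, in groups as small as 3 cells. Among cells with Tcf7 the median was lower with Pdcd1 on every plate. Among cells without Tcf7 it was higher with Pdcd1 on every plate but KO-labelled CD4, where it was lower.

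Gene by gene, the Tcf7 difference ran through nearly the whole group. It was taken as the difference of mean log2(FPKM + 1), on which scale low genes are understated, for genes detected in at least 20% of the cells of 1 of the 2 groups. Of 80 members tested on all 4 plates, 72 were above 0 on all 4, against 8.64% of the 3911 genes tested. By at least 1 log2 unit 70 of 81 members were higher on the WT CD8 plate, against 10.6% of genes, 39 of 80 on the KO-labelled CD8 plate, against 7.44%, 37 of 80 on the WT CD4 plate, against 5.14%, and 47 of 81 on the KO-labelled CD4 plate, against 18.7%. The median of the plate means was 1.22 for the members and -0.20 for all genes. Rps27, a zinc finger protein gene of the small subunit, was highest with a mean of 2.31, then Rps12 with 1.93, and among the 4 highest was Rpl12, a stalk base protein gene, with 1.85. Among those with known second roles, Rpl5 had 1.35, Rpl11 1.51, Rps6 1.31, Rps27a 1.21 and Rpsa 0.79. Rplp0, Rplp1 and Rplp2 had 1.17, 1.37 and 1.21.

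Rps12, whose protein lies in the head of the small subunit, shows the pattern in single cells. It was read at a median of 1022, 998.5, 749 and 698 FPKM in the kept cells of the 4 plates, from 0 in each to between 4079 and 5473 FPKM, and at 3223, 3001, 3391 and 2828 FPKM in the wells. It was detected in 11 of 11, 47 of 48, 33 of 33 and 17 of 17 Tcf7-detected cells, and in 52 of 61, 27 of 32, 39 of 46 and 45 of 56 others. The plate differences were 2.18, 1.54, 1.70 and 2.30 log2 units.

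The 8 members outside that pattern were Rpl13, Rpl22, Rpl26, Rpl34, Rps19 and Rpsa, each below 0 on 1 plate and by no more than 0.22, Rpl7l1, below 0 on 2 plates, and Rps27l, below 0 on all 4. Rps27l was the only member below 0 on all 4 plates, against 15.8% of all genes. The count was 0 with a pseudocount of 10, against 15.9% of all genes. It was also 0 with each library rescaled to the same total, against 13.8%. Matching cells on detected genes left 60 of 80 members above 0 on all 4 plates, with 9.97% of all genes.

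Related gene lists gave other counts. None of 38 tested mitochondrial ribosomal protein genes was above 0 on all 4 plates, against 8.64% of all genes, and 6 were below 0 on all 4, against 15.8% of all genes. The share of FPKM held by that set differed between cells with and without Tcf7 by -0.0996 and -0.135 percentage points on the CD8 plates and by 0.0756 and 0.152 on the CD4 plates. Its mean was -0.002 ± 0.138 (SD, n = 4 plates), with p = 1 in the exact sign-flip permutation test. The share held by genes for elongation factors and other TOP-type messages was higher with Tcf7 on all 4 plates, by 1.21, 0.884, 1.44 and 0.483 percentage points, with p = 0.13 in the same exact test. Of the 19 genes of that list, 9 were above 0 on all 4 plates, to be read, as are the counts that follow, against 8.64% of all genes above and 15.8% below. For initiation factors the count was 3 of 20, for ribosome biogenesis genes 2 of 14, and for the ribosomal stress and S6 kinase list 0 of 5. Of 4 ribosomal protein genes whose symbols do not follow the rule, 2 were above 0 on all 4. Naive and memory T cell genes gave 6 of 9, with Il7r, the interleukin-7 receptor gene, at 5.48 on the WT CD8 plate. Exhaustion and effector genes gave 0 of 9, and 8 of the 9 were below 0 on all 4, with Gzmb at -7.72 on the WT CD8 plate.

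**Figure D3:**
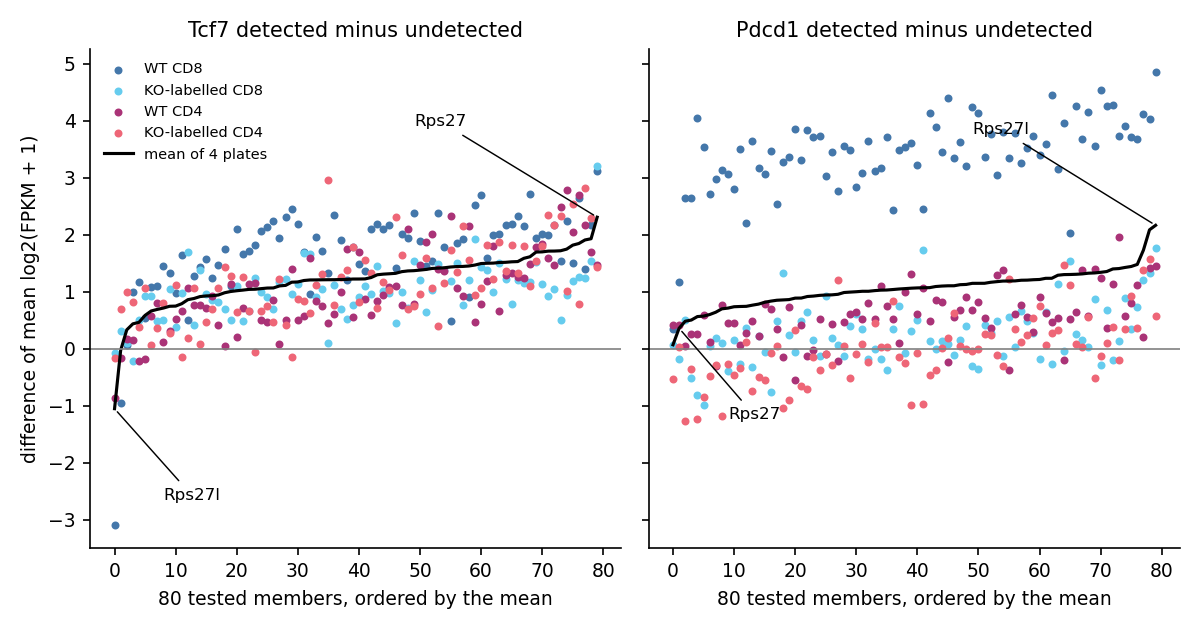
Difference of mean log2(FPKM + 1) between cells with and without Tcf7 (left) or Pdcd1 (right) for each of the 80 ribosomal protein genes tested on all 4 plates (horizontal axis, ordered by the mean), with 1 point per plate and the mean of 4 plates as a black line. Rps27 is the highest and Rps27l the lowest gene for Tcf7, and Rps27l is the highest for Pdcd1, where the WT CD8 point is the highest of the 4 for nearly all genes.

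For Pdcd1, 26 of 80 members were above 0 on all 4 plates, against 39.2% of 4335 genes tested, and none were below 0 on all 4, against 1.98%. The members' median of plate means was 1.07 against 0.91 for all genes, but the plates differed. The members' medians were 3.50, 0.16, 0.55 and 0.004, against 1.52, 0.68, 0.66 and 0.16 for all genes, so that members lay above all genes on the WT CD8 plate and below them on the other 3. In cells matched on detected genes the medians of plate means were -0.19 for members and 0.02 for all genes. There 1 member was above 0 on all 4 plates, against 8.3% of all genes, and 15 were below, against 7.27%. With each library rescaled to the same total the medians were 0.769 and 0.773. Then 15 members were above 0 on all 4 plates, against 33.6% of all genes, and 0 were below, against 3.81%. The paralogues Rps27l at 2.17 and Rpl22l1 at 2.09 were the highest members, then Rps26 at 1.73 and Rpl41 at 1.48, and Rps4y2 at 0.07, Rps27 at 0.36 and Rps29 at 0.48 the lowest. Without the WT CD8 plate Rps27l was at 1.27 and Rps27 at 0.09.

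Rps27 was the highest and Rps27l the lowest member for Tcf7. For Pdcd1 Rps27l was the highest and Rps27 among the lowest, with both means above 0. Over the kept cells of the 4 plates the Spearman rho between them was 0.242, 0.061, 0.027 and 0.082, none of them negative. Both genes encode closely similar small-subunit proteins, and Rps27l is known as a p53 target. In the wells Rps27 was at 2865 FPKM in WT CD8, 4159 in KO-labelled CD8, 4941 in WT CD4 and 3488 in KO-labelled CD4, while Rps27l was at 442, 148.8, 394 and 217.04 FPKM. Rps27l was thus lower than Rps27 in each well and made up 13.4%, 3.45%, 7.38% and 5.86% of the pair. In single cells Rps27 ran from 0 over medians of 163.4, 752, 742 and 643 FPKM to highest values of 5061, 3678, 3515 and 3628 FPKM. Rps27l ran from 0 over medians of 2.08, 0, 0 and 0 FPKM to 989.8, 458, 713 and 1073 FPKM. Despite its high level in the wells, Rps27 was detected in only 55.6% to 69.6% of the kept cells of a plate.

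The coding sequences are shown because reads can be assigned to the right gene only where the pair differs. Each was taken as the longest reading frame from ATG to stop of the first-numbered GENCODE M21 transcript (GRCm38). Rps27 lies at chr3:90212522-90213651 on the minus strand and Rps27l at chr9:66946086-66949516 on the plus strand. Capitals mark the bases at which they differ.
Rps27: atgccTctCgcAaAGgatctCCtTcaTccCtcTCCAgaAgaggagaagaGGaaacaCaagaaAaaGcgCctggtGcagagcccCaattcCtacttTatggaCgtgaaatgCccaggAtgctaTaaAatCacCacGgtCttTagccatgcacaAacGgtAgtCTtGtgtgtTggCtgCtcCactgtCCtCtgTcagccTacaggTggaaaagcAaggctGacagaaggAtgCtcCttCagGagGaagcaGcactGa
Rps27l: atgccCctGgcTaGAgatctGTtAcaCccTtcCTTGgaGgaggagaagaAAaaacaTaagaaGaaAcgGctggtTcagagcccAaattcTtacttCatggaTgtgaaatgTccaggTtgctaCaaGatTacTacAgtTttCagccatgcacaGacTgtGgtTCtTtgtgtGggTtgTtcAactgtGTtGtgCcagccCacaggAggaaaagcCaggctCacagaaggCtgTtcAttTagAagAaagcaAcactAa
Each holds 85 codons, and they differ at 61 bases, an identity of 76.1%. Of the 61 differences 53 fall on the third base of a codon, and the longest identical stretch is 11 bases, so a read of usual length over the coding sequence carries several differences.

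Rps27 was detected in 72.7%, 81.3%, 75.8% and 76.5% of Tcf7-detected cells and in 52.5%, 50%, 65.2% and 64.3% of the other cells of the 4 plates. Its log2 difference was 3.12, 3.20, 1.47 and 1.44. Rps27l was detected in 18.2% (2 of 11), 31.3% (15 of 48), 12.1% (4 of 33) and 23.5% (4 of 17) of Tcf7-detected cells and in 55.7%, 34.4%, 23.9% and 28.6% of the others. Its differences were -3.09, -0.08, -0.87 and -0.17, so the mean of -1.05 rests largely on the WT CD8 plate, without which it was -0.37, and in cells matched on detected genes it was -0.36. With Pdcd1 the order was the reverse: Rps27l was found in 68%, 50%, 32% and 30.4% of Pdcd1-detected cells and in 9.09%, 24.1%, 12.96% and 26% of the others, with differences of 4.86, 1.78, 1.45 and 0.58. In cells matched on detected genes the mean was 0.18 in place of 2.17. The 95% exact binomial intervals, which cover counting error only, overlapped between groups for every plate and contrast but 1, Rps27l with Pdcd1 on the WT CD8 plate (53.3 to 80.5 against 1.12 to 29.2).

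**Figure D4:**
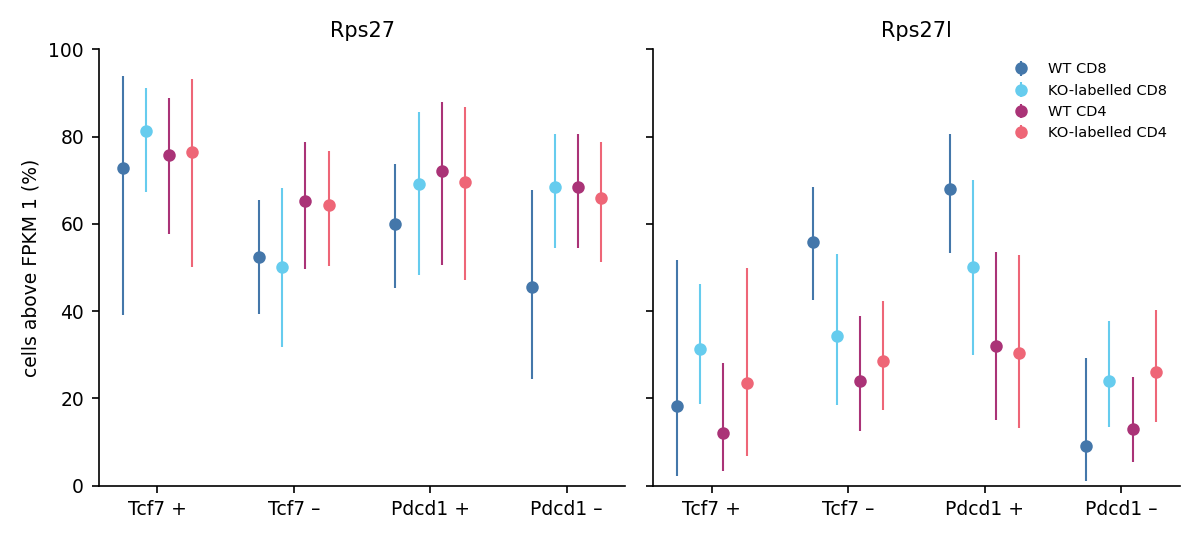
Percent of cells in which each gene was detected (vertical axis) for Rps27 (left) and Rps27l (right) among cells with (+) and without (–) detected Tcf7 or Pdcd1, by plate, with exact 95% binomial intervals. Rps27l reaches 68% of Pdcd1-detected WT CD8 cells and 9.09% of those without Pdcd1, while Rps27 is the higher with Tcf7 on all 4 plates.

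Between the genotype labels the share moved in opposite directions in the lineages. KO-labelled minus WT was 2.39 percentage points in CD8 cells and 0.818 in the CD8 wells, and -1.21 in CD4 cells and -4.19 in the CD4 wells. Tcf7 detection moved with it, at 15.3% in WT and 60% in KO-labelled CD8 cells and at 41.8% and 23.3% in CD4 cells. Within a Tcf7 class the CD8 difference had the other sign: it was -1.02 among cells without Tcf7 (n = 32 and 61) and -3.11 among cells with it (n = 48 and 11). In CD4 cells it was 0.235 without Tcf7 (n = 56 and 46) and -1.82 with Tcf7 (n = 17 and 33). With at least 2000 genes the 4 values were -1.38, -3.03, 1.23 and -1.94 in the same order.

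In CD8 cells 70 of 81 tested members were above 0, against 21.9% of 6599 genes, and the median was 0.71 against -0.46. By at least 1 log2 unit 20 were higher, against 3% of all genes, and 1 was lower, Rps27l, against 19.5%. Rpl19 led with 1.45, then Rpl10, on the X chromosome, with 1.39, Rps16 with 1.37 and Rps4x with 1.36, and Rps27l at -1.53, Rpl30 at -0.70, Rpl7l1 at -0.64 and Rpl31 at -0.57 were lowest. In cells matched on detected genes the median was 0.25 and Rps27l was at -0.27. There 1 member was higher by at least 1 log2 unit, against 4.86% of all genes. With a pseudocount of 10 Rps27l was at -0.97. The CD8 wells hardly differed, with a median of 0.02 against 0.04 over 11875 genes and 43 of 81 members above 0, against 51.6%. In the wells Rps27l was at -1.56, the only member lower by at least 1 log2 unit, against 16.8% of genes.

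In CD4 cells 34 of 80 members were above 0, against 62.5% of 4687 genes, with a median of -0.09 against 0.16. By at least 1 log2 unit 2 members were higher, against 8.75% of genes, among them Rpl7a with 1.74, and 1 was lower, Rpl35 with -1.46, against 1.51%. In the CD4 wells 5 of 82 were above 0, against 50.3%, and the median was -0.33 against 0.01. Rpl35 was among the lowest there as well, at -0.76, from 2956 FPKM in WT to 1747 FPKM in the KO-labelled well. Of 79 members above 100 FPKM in both wells, 67 lay within 0.5 log2 units of equality and 2 were higher in the KO-labelled well. The same counts were not taken over other genes of that level. Among those beyond 0.5 were Rps27l at -0.86, Rpl10a at -0.67 and Rpl29 at -0.58.

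Between the lineages the KO-labelled plates differed more than the WT plates. CD4 minus CD8 was -4.66 percentage points in KO-labelled cells and -4.12 in the wells. For WT it was -1.06 in cells and 0.898 in the wells, opposite in sign. On the KO-labelled plates 0 of 80 members were above 0, against 34.7% of 5286 genes. None were higher by at least 1 log2 unit, against 4.63%, and 31 were lower by at least 1 log2 unit, against 11.1%, with Rpl36a at -2.12, Rps2 at -1.84, Rpl35 at -1.74 and Rpl31 at -1.70. On the WT plates 38 of 81 were above 0, against 12.9% of 6524 genes. There 15 were lower by at least 1 log2 unit, against 37.2%, and 2 higher, Rps27 at 1.57 and Rpl19 at 1.07, against 2.16%. Among the lowest were Rps27l at -2.54, Rpl22l1 at -2.08 and Rpl7a at -1.99. The members' WT median, -0.14, turned to 0.28 when each library was rescaled to the same total, and the Rps27l difference was 0.04 in cells matched on detected genes. In the wells 58 of 81 members were above 0 for WT, against 51.7% of genes, and 10 of 82 for the KO label, against 51%. These comparisons use the same plates as the label comparisons and are not independent of them.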

How the data were processed

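The 84 genes, the gene lists and the tests were chosen with earlier results of these data known. The promoter search, the scan over detected genes, the Rps27 and Rps27l comparison, the denominator without Rn45s and Gm20594 and the second cell cycle rule were added after values were seen. The deposited values are FPKM that the authors normalized between libraries with TMM factors, per the labels. RSEM, Bowtie and mm10 are named in the submitters' processing notes, with versions not given in the sources used here. FPKM hold no read counts, so counting error of a single value is unknown. Only columns matched to a listed sample were read. Multi-copy families can share reads with pseudogene rows. The share was the sum of the members' FPKM over the library's total FPKM. Cells needed 1000 genes above FPKM 1. Levels were log2(FPKM + 1), and a gene was tested at 20% detection in 1 of 2 groups. Detection contrasts used the exact sign-flip permutation test over 4 plates. Genes were named by rank in each comparison, by place among the wells, as paralogues, or for known roles. The scripts were tested on simulated data and ran in Python 3.11.15 with numpy 2.4.6, pandas 2.3.3 and scipy 1.17.1. Matching took cells within 10% of each other in detected genes. Alternatives covered cell filters, matching, member and denominator sets, pseudocounts and scaling. Some genes that these rules name are not reported here.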

Additional observations from a re-analysis of the deposited data

Results flagged for a closer look

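The difference in the ribosomal protein share between KO-labelled and WT libraries had opposite signs in the lineages, in cells and in wells alike. It was 2.39 percentage points in CD8 cells and -1.21 in CD4 cells, and 0.818 in the CD8 wells and -4.19 in the CD4 wells. Most single members did not show all of these signs. Of 80 members tested, 24 were above 0 in CD8 cells and wells and below 0 in CD4 cells and wells. In the wells 37 were below 0 in both lineages. The part of all genes with these signs was not counted. In cells matched on detected genes the share differences were 1.62 in CD8 and -0.448 in CD4. The difference between the lineages was not tested, because each group is 1 plate and 1 well. Tcf7 detection also moved in opposite directions, from 15.3% to 60% in CD8 cells and from 41.8% to 23.3% in CD4 cells, and its part in the result was not tested.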

How the results depend on the processing

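No paired analysis was possible because the replicate numbers of the cells only name wells of a plate and each group is 1 plate. Removing cells with at least 3 detected cell cycle genes gave no value, since it left too few cells per plate. Unless the setting itself uses fewer cells, the cause of a change below was not tested. The Tcf7 share difference kept its direction under every alternative run: its mean was 8.21 percentage points over all 94 cells of each plate and 5.95 to 7.23 without 1 plate. The Pdcd1 mean turned to 2.16 over all 94 cells and ranged from -1.74, without the WT CD8 plate, to 0.0733, without the KO-labelled CD8 plate. On single plates it turned to 0.383 in WT CD4 over all 94 cells, and in WT CD8 to -5.37 with at least 2000 genes, -5.66 in matched cells and -0.689 without cycling cells. KO-labelled minus WT in CD4 cells was -1.91 over all 94 cells, -0.792 with at least 2000 genes and -0.448 in matched cells. CD4 minus CD8 in WT cells was -0.476, -2.85 and -2.34 under those settings, -0.63 without the 5 highest members, -2.64 without the 50 highest other genes and -2.20 without Rn45s and Gm20594. Counts of members past 1 log2 unit follow, each with the percent of all genes in brackets. KO-labelled minus WT in CD8 cells gave 40 higher with a pseudocount of 0.1 (5.23%), 2 with 10 (1.11%), 38 rescaled (4.24%) and 1 matched (4.86%). It gave 0 lower with 10 (3.58%) and 2 matched (7.33%). In CD4 cells it gave 5 higher with 0.1 (18.8%), 1 with 10 (2.05%) and 1 rescaled (8.53%). Lower were 2 with 0.1 (5.25%) and 3 matched (5.55%). CD4 minus CD8 gave 6 higher with 0.1 (3.23%), 1 with 10 (1.1%) and 9 rescaled (3.3%) for WT. For the KO label it gave 18 lower with 10 (2.63%). In matched cells the Rps27l difference between WT lineages turned to 0.0409 and the Rps27 difference with Pdcd1 to -0.772. FPKM carry no read counts, so the depth behind an undetected gene is unknown.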
